A study of Homo sapiens with 8 samples.

Results

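A group of 10 genes that ERK signalling is known to induce, and that restrain or relay it, was followed over 8 human cancer cell lines: the Sprouty genes SPRY1, SPRY2 and SPRY4, the Sprouty-related genes SPRED1 and SPRED2, the dual-specificity phosphatase genes DUSP4, DUSP5 and DUSP6, and the ETS transcription factor genes ETV4 and ETV5. They were picked by symbol, and all 10 were found among the 58202 identifiers of the deposited tables, each with 1 identifier. Values are FPKM, the authors' fragments scaled by transcript length and by all mapped fragments, and were compared as log2(FPKM + 1). Every one of the 10 reached an FPKM of 1 in at least 2 lines, the minimum for the tissue tests, which 15650 genes passed.

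The series was built around ERBB4-expressing lines that do or do not respond to ibrutinib, which blocks Bruton's tyrosine kinase (BTK). The labels do not tell which 4 lines responded, so response was not analysed. The lung lines were H522 (non-small cell cancer), H661 (large cell cancer) and H146 (small cell cancer), the endometrial lines KLE (adenocarcinoma) and HEC59 (carcinoma), and the others H716 (cecum, colorectal adenocarcinoma), 1321N1 (glial, from a brain astrocytoma) and COV318 (ovarian, epithelial-serous carcinoma). All were cultured for 48 hours in plates, the labels give no drug treatment or genetic change for any line, and passages ranged from 3 to 15. Each line is 1 library, so the order of neighbouring lines for a gene has no measured spread behind it, and lines of 1 tissue are different tumours.

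Growth factor receptors such as the ERBB and FGFR families switch on RAS, which acts through the RAF, MEK and ERK kinases. Active ERK turns on ETS factors of the PEA3 group (ETV1, ETV4 and ETV5) and relieves repression by CIC, and genes induced in this way include those of Sprouty, SPRED and DUSP proteins, which dampen the same cascade. Because their transcripts follow ERK output in many cells, several of these genes are used as a readout of the pathway in tumours. FPKM holds transcript levels alone, and neither ERK phosphorylation nor any protein was measured.

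Depth is known only in relative terms. From the steps of low values, the libraries ranged from 1 in KLE to 2.69 in 1321N1, with H146 at 1.48 and H716 at 1.27, and absolute depth is unknown, so no counting interval is given. For sets of like read steps, only splits of the lines 4 to 4 were tried. The best put KLE, H716, H522 and H661 in the one set and H146, COV318, HEC59 and 1321N1 in the other. On average 20.2% of low-value ratios lay near the commonest ratio for pairs within a set, and 10.8% between sets. The sets were not clean, with 17.7% for KLE and COV318 of different sets and 15.6% for H522 and KLE of the same set. Values centred within these sets are given below beside the main relations across lines. Labelled tissues were checked with short marker lists. Of 6 lung markers H522 had none at an FPKM of 1, and H661 (NKX2-1), H146 (FOXA2) and the cecal line H716 (FOXA2) 1 each. Of 6 glial markers 1321N1 had 1, GFAP, with 4 listed at 0 and a summed FPKM of 3.11, while H146 had 2 (AQP4 and GFAP), with a sum of 6.06, and KLE 1. Of 5 Mullerian markers KLE had 5, HEC59 4 and COV318 4, and of 5 intestinal markers H716 had 4. Of 6 neuroendocrine markers H146 had 5 and H716 4, with summed FPKM of 340 and 82.9 against at most 3.44 elsewhere. Of 5 immune markers the lines had none or, in H716, 1 (LYZ).

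Promoter sequences of 4 members are printed first, those with a match other than the GC box among the motifs below. The levels of SPRY1, SPRY4 and DUSP6 were all lowest in H146, and SPRY2 departed from them in H522. SPRED2 was also lowest in H146, but its windows held no such match and are not printed. RefSeq promoter windows (GRCh38.p14) were found for 6 of the 10 genes (SPRY1, SPRY2, SPRY4, SPRED1, SPRED2 and DUSP6), in 10 windows, since 3 genes have several starts. The 250 bases before each start were searched on both strands for 7 motifs: the ETS motif CCGGAAG, the cyclic AMP response element TGACGTCA and its shorter form TGACG, which the full element contains, the AP-1 motif TGANTCA, the CArG box of SRF, the GC box GGGCGG, and the CIC octamers TGAATGAA, TGAATGGA, TCAATGAA and TCAATGGA. Capitals mark any match other than the GC box, and positions count back from the start, with -1 the base before it. The windows lie on chr12:89352502-89352751 (minus strand) for DUSP6, chr4:123398136-123398385 (plus strand, the second start in the table) for SPRY1, chr5:142324248-142324497 (minus strand) for SPRY4 and chr13:80341127-80341376 (minus strand, the first start in the table) for SPRY2.
DUSP6: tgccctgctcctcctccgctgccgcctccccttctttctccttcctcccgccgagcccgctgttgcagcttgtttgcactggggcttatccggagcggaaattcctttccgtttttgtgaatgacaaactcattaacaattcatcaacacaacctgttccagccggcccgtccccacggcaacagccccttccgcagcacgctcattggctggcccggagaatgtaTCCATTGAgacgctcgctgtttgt
SPRY1: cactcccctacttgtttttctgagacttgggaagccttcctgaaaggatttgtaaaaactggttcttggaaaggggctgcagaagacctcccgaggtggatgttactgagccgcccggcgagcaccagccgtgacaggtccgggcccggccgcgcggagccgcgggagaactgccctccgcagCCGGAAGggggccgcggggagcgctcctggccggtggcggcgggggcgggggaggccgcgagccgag
SPRY4: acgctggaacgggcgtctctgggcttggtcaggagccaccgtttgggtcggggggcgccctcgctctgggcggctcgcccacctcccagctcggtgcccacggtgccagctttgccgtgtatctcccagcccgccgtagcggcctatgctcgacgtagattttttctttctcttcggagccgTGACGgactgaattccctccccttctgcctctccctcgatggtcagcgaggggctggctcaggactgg
SPRY2: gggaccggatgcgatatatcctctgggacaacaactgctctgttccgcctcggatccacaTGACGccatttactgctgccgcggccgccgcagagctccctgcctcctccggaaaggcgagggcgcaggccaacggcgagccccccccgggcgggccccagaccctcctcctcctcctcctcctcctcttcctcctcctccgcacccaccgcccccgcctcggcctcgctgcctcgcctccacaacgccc
A CIC octamer was in 1 of the 10 member windows and in 3.18% of all 35116 windows. It lay in the DUSP6 window, on the opposite strand from position -24. The ETS motif was in 1 of the 10, the SPRY1 window at position -67, and in 8.52% of all windows. TGACG was in 2 of the 10, at position -68 for SPRY4 and -190 for SPRY2, and in 21.2% of all windows. The GC box was in 4 of the 10 member windows and in 42.6% of all. No member window had the full cyclic AMP element (1.65% of windows), the AP-1 motif (6.57%) or the CArG box (1.16%). These matches describe letters in the windows, and binding was not measured.

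Sprouty proteins are inducible inhibitors that act between receptor and RAF. SPRY1 (ENSG00000164056) stood at an FPKM of 82.8 in H522, 44.2 in HEC59, 32.8 in H716, 23.2 in H661, 20.0 in KLE, 19.0 in COV318, 6.86 in 1321N1 and 3.56 in H146. It was therefore high in 3 lines of different tissues, and the lung lines held both its highest and its lowest value. In bulk libraries such as these, fewer expressing cells and less RNA per cell cannot be told apart. SPRY2 (ENSG00000136158) took another course, at 29.7 in H661, 22.2 in H716, 13.9 in 1321N1, 11.7 in COV318, 9.26 in KLE, 3.76 in HEC59, 1.27 in H146 and 0.192 in H522. H522 thus combined the highest SPRY1 with the lowest SPRY2. SPRY4 (ENSG00000187678) was at 56.4 in H716, 31.9 in H661, 16.7 in HEC59, 11.9 in H522, 11.2 in KLE, 10.1 in 1321N1, 9.78 in COV318 and 0.872 in H146. Its range was 4.94 on the log2 scale, and H146 lay 2.53 below the next line.

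Because FPKM is per length, the Sprouty levels can be added within a line, with SPRY3, the remaining family gene, included. The summed Sprouty FPKM was 112 in H716, 94.9 in H522, 90.7 in H661, 66.2 in HEC59, 41.0 in KLE, 40.9 in COV318, 30.9 in 1321N1 and 5.75 in H146. The sums of H522 and H661 were close, yet SPRY1 made up 87.2% of the first and 25.6% of the second. SPRY4 gave the largest share in H716 (50.5%), SPRY2 in 1321N1 (44.9%), and SPRY1 in HEC59 (66.8%) and H146 (61.9%). SPRY3 reached 5.93 in H661 and 1.52 in HEC59, and was below 1 in the other lines.

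**Figure D1:**
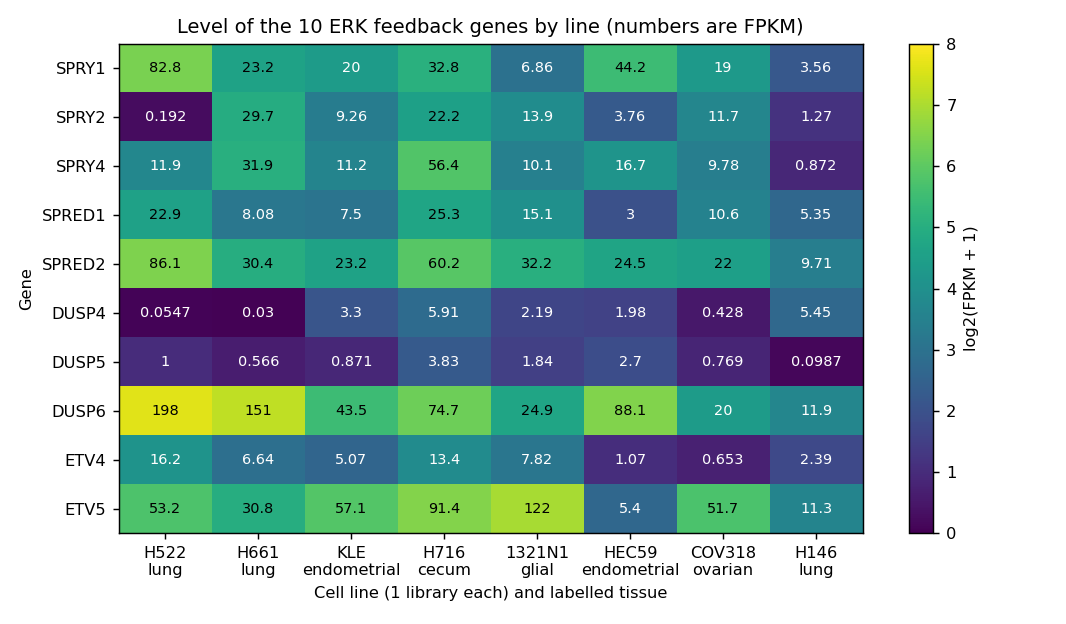
FPKM of the 10 genes (rows) in the 8 lines (columns, with labelled tissue), coloured by log2(FPKM + 1), with 1 library per line and so no error bars. H146 has the lowest value of SPRY1, SPRY4, SPRED2, DUSP5 and DUSP6, while DUSP4 is near 0 in H522 (0.0547) and H661 (0.03003), where DUSP6 is highest (198 and 151).

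SPRED proteins are membrane-bound relatives of Sprouty that bring neurofibromin, the product of NF1, to RAS. SPRED2 (ENSG00000198369) was the more abundant gene, at 86.1 in H522, 60.2 in H716, 32.2 in 1321N1, 30.4 in H661, 24.5 in HEC59, 23.2 in KLE, 22.0 in COV318 and 9.71 in H146. It exceeded SPRED1 in all 8 lines and made up 61.6% (H146) to 88.8% (HEC59) of the summed SPRED FPKM. SPRED1 (ENSG00000166068) was at 25.3 in H716, 22.9 in H522, 15.1 in 1321N1, 10.6 in COV318, 8.08 in H661, 7.499 in KLE, 5.35 in H146 and 2.998 in HEC59. H716 and H522 led both genes, but the lowest line was HEC59 for SPRED1 and H146 for SPRED2. SPRED3 did not exceed 1.77, its level in H661. NF1 varied little, from 29.5 in H146 to 51.2 in H522, a range of 0.77 on the log2 scale.

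DUSP6 (ENSG00000139318) encodes a cytoplasmic phosphatase that is selective for ERK. Its FPKM was 198 in H522, 151 in H661, 88.1 in HEC59, 74.7 in H716, 43.5 in KLE, 24.9 in 1321N1, 20.0 in COV318 and 11.9 in H146. It was the most abundant of the 3 phosphatase genes in every line, with 68.1% (H146) to 99.6% (H661) of their summed FPKM. DUSP4 (ENSG00000120875), which encodes an inducible nuclear phosphatase, was at 5.91 in H716, 5.45 in H146, 3.30 in KLE, 2.19 in 1321N1, 1.98 in HEC59, 0.428 in COV318, 0.0547 in H522 and 0.03003 in H661. The lines with the most DUSP6 had the least DUSP4, and in H146, where DUSP6 was lowest, DUSP4 supplied 31.3% of the sum. DUSP5 (ENSG00000138166), whose product is a nuclear ERK phosphatase, was low throughout, from 3.83 in H716, 2.70 in HEC59, 1.84 in 1321N1 and 1.004 in H522 to 0.871 in KLE, 0.769 in COV318, 0.566 in H661 and 0.0987 in H146. Only 4 lines reached an FPKM of 1 for it, the fewest for any of the 10 genes.

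ETV4 and ETV5 encode PEA3-group ETS factors that act downstream of ERK. ETV5 (ENSG00000244405) was at 122 in 1321N1, 91.4 in H716, 57.1 in KLE, 53.2 in H522, 51.7 in COV318, 30.8 in H661, 11.3 in H146 and 5.40 in HEC59. HEC59, which had the third highest DUSP6 and the second highest SPRY1, was thus lowest for ETV5. ETV4 (ENSG00000175832) was at 16.2 in H522, 13.4 in H716, 7.82 in 1321N1, 6.64 in H661, 5.07 in KLE, 2.39 in H146, 1.07 in HEC59 and 0.653 in COV318. In the GENCODE v29 annotation, exons of ETV4 overlap those of DHX8 on the opposite strand, at an FPKM of 8.28 to 36.3 here, and the sources used here do not say whether reads were assigned by strand. Low ETV4 values are therefore uncertain. One other overlap on the opposite strand concerns DUSP6 (AC024909.2, not in these tables), and ETV5 overlaps DGKG on the same strand.

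ETV1, the remaining PEA3-group gene and not among the 10, varied more than either, at 361 in H716, 145.6 in H661, 52.4 in 1321N1, 32.0 in H146, 13.9 in KLE, 3.32 in H522, 0.942 in COV318 and 0.295 in HEC59. It made up 79.5% of the PEA3 sum in H661, 77.5% in H716 and 70.1% in H146, whereas ETV5 made up 97.0% in COV318, 79.8% in HEC59, 75.1% in KLE and 73.2% in H522. The summed PEA3 FPKM spanned 6.76 in HEC59 to 466 in H716.

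**Figure D2:**
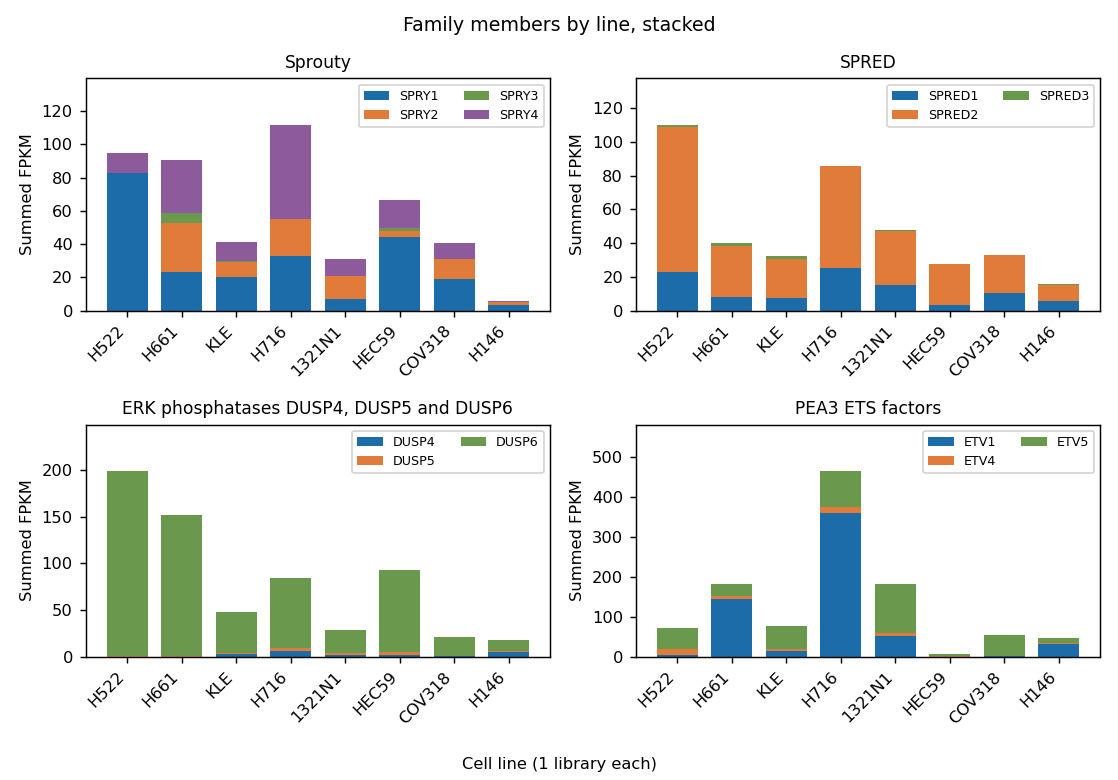
Summed FPKM per line (vertical axis, from 0) for the Sprouty, SPRED, ERK phosphatase and PEA3 genes, stacked by gene over the 8 lines, 1 library each. The Sprouty sums of H522 (94.9) and H661 (90.7) are close but differ in make-up, and ETV1 fills most of the PEA3 bar of H716 and H661.

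Line by line, the 10 genes were high in H716 and low in H146. The mean of log2(FPKM + 1) over the 10 was 4.78 in H716, 3.99 in H522, 3.86 in H661, 3.74 in 1321N1, 3.60 in KLE, 3.22 in HEC59, 3.17 in COV318 and 2.23 in H146. The distance between the ends was 2.55, and 1.61 without H146. Means over all genes tested ran from 2.75 in HEC59 and 2.76 in H146 to 3.02 in 1321N1. A mean over so many genes varies less between lines than one over 10, so these values set no scale for that distance.

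H716 had the highest value of SPRY4, SPRED1, DUSP4 and DUSP5, 4 of the 10, where 13.6% of all genes tested were highest in that line. With upper-quartile scaling the count was 2, as H522 then led SPRED1 and H146 led DUSP4. H146 also led DUSP4 with quantile normalization and with rescaled totals. H716 was among the top 3 lines for 9 of the 10, DUSP6 being the exception. The share of all genes with H716 in their top 3 was not computed, so this count is only a description. H522 was highest for SPRY1, SPRED2, DUSP6 and ETV4, against 17.9% of all genes. H146 was lowest for SPRY1, SPRY4, SPRED2, DUSP5 and DUSP6, 5 of the 10, where 19.6% of all genes were lowest in that line. DUSP4 was its exception, with the second highest value. No gene was led by 1 line by 1 or more on the log2 scale, where some line led in 14.5% of all genes. SPRY4 and SPRED2 were trailed by H146 by that margin, where some line trailed in 7.15% of all genes and H146 in 2.63%. H146 and H716 lay at opposite ends although both had high neuroendocrine markers. The summed mesenchymal markers were also lowest in H146, at 23.0 against 197 to 3634 in the other lines, and the part of these differences in the results was not tested.

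Differences between lines were wider for the 10 genes than for the median gene. The SD of log2(FPKM + 1) over the lines had a median of 1.29 for the 10, from 0.70 to 1.64, and of 0.67 over all 15650 genes tested, and the median range was 3.66 against 1.94. The 10 genes were also more abundant, with a median mean level of 3.62 against 2.62 on the log2 scale, and since the set was chosen with earlier results known, this is a description.

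The genes partly varied together. Over the 8 lines, Pearson's r of log2(FPKM + 1) was above 0 in 36 of the 45 pairs (80.0%) with a median of 0.31, while over all pairs of genes tested 51.8% were above 0 and the median was 0.02. The highest r were those of SPRY1 with DUSP6 (0.86, rho = 0.90), SPRED1 with ETV5 (0.85, rho = 0.76) and SPRED1 with SPRED2 (0.78, rho = 0.74). SPRY1 with DUSP6 stood at 0.80 centred within the read-step sets and at 0.64 once H146 and H522, farthest from the median SPRY1 level, were left out. SPRED1 with ETV5 stood at 0.82 centred and 0.68 without H716 and HEC59. These values rest on 8 points of 1 library each and carry no test.

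Within families the values ran from high to negative. The 8 pairs inside a family had a median r of 0.47, and the 37 pairs across families one of 0.30. SPRED1 with SPRED2 (0.78, 0.70 centred), SPRY1 with SPRY4 (0.64, 0.48 centred), SPRY2 with SPRY4 (0.62, 0.65 centred) and ETV4 with ETV5 (0.61, 0.52 centred) were the higher ones. DUSP5 had r of 0.33 with DUSP6 and 0.27 with DUSP4 (0.38 and 0.29 centred). SPRY1 and SPRY2 had r of -0.14 (-0.28 centred), from -0.67 without H146 to 0.44 without H522. DUSP4 had r of -0.52 with DUSP6 (rho = -0.55, -0.56 centred) and of -0.48 with SPRY1 (-0.46 centred), and was the single gene with a negative r to the mean of the other 9 (-0.23). Without H522 and H661, r of DUSP4 with DUSP6 was 0.13. SPRED2 (0.85) and SPRY4 (0.81) lay closest to the mean of the others. The median r over the 45 pairs was 0.20 without H146, 0.20 without H716, 0.47 without H522, 0.53 without HEC59 and 0.20 centred within the read-step sets.

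**Figure D3:**
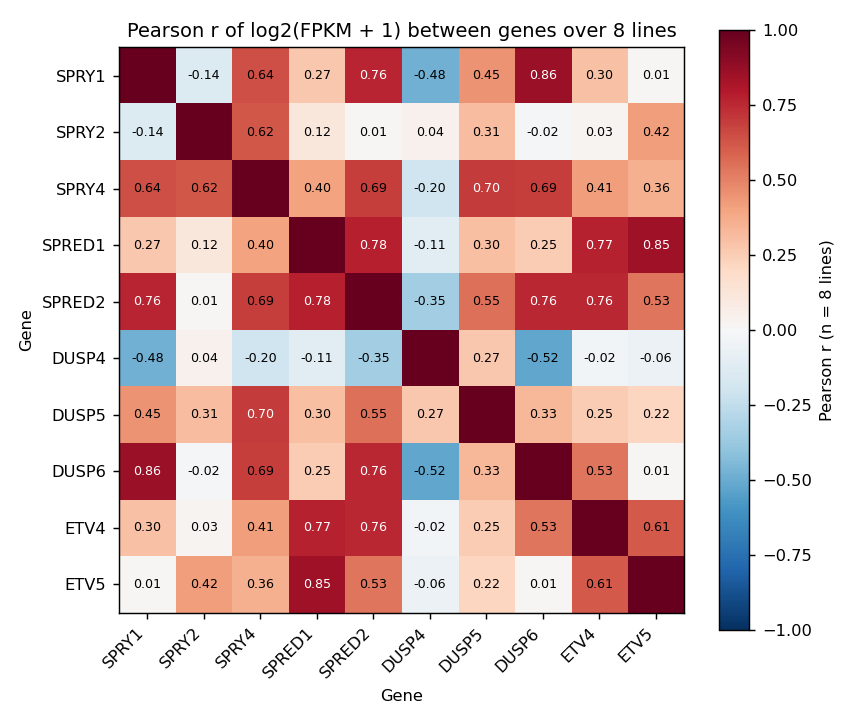
Pearson's r of log2(FPKM + 1) over the 8 lines for each pair of the 10 genes, rows and columns in the same order, blue below 0 and red above. DUSP4 is blue or pale against the other genes, and SPRY1 with DUSP6 (0.86) and SPRED1 with ETV5 (0.85) are the deepest red off the diagonal.

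ERBB4, the receptor by which the lines were chosen, ran close to SPRY1. ERBB4 was at 102 in H522, 85.3 in HEC59, 76.1 in H716, 36.3 in COV318, 33.8 in KLE, 28.7 in H661, 28.5 in 1321N1 and 13.4 in H146. The top 3 lines and the lowest line were the same, in the same order, for both genes. Their r was 0.92 (rho = 0.90, n = 8), the highest of the 70 relations computed between the 10 genes and ERBB4, EGFR, FGFR1, FGFR2, FGFR3, FGFR4 and ETV1. It was 0.93 centred within the read-step sets, 0.78 without H146 and H522, and 0.86 to 0.96 when single lines were left out. For DUSP6 the r with ERBB4 was 0.73 (0.71 centred) and without those lines 0.33, for SPRED2 0.80 (0.79 centred) and 0.37, and for DUSP5 0.71 (0.72 centred) and 0.82. The r with ERBB4 was 0.066 for ETV5 (-0.084 centred) and -0.16 for SPRY2 (-0.24 centred). For the mean of the 10 genes it was 0.67 (rho = 0.40, 0.62 centred), and 0.30 without H146 and H522. Of 14618 genes searched, 21, SPRY1 itself included, had r of 0.9 or more with SPRY1. Among them IDE (0.97) and FAM8A1 (0.94) lay above ERBB4. The relation of SPRY1 with ERBB4 was picked as the highest and carries no test. SPRY2 had r of 0.79 with EGFR (0.79 centred), which was -0.16 without H522 and H146, where EGFR was at 0.392 and 0.00692. FGFR2 was at 1853 in H716, the line highest on average for the 10 genes, at 123 in HEC59 and at most 36.1 elsewhere. Its r with the mean of the 10 genes was 0.41 (0.38 centred), and -0.21 without HEC59 and H716.

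**Figure D4:**
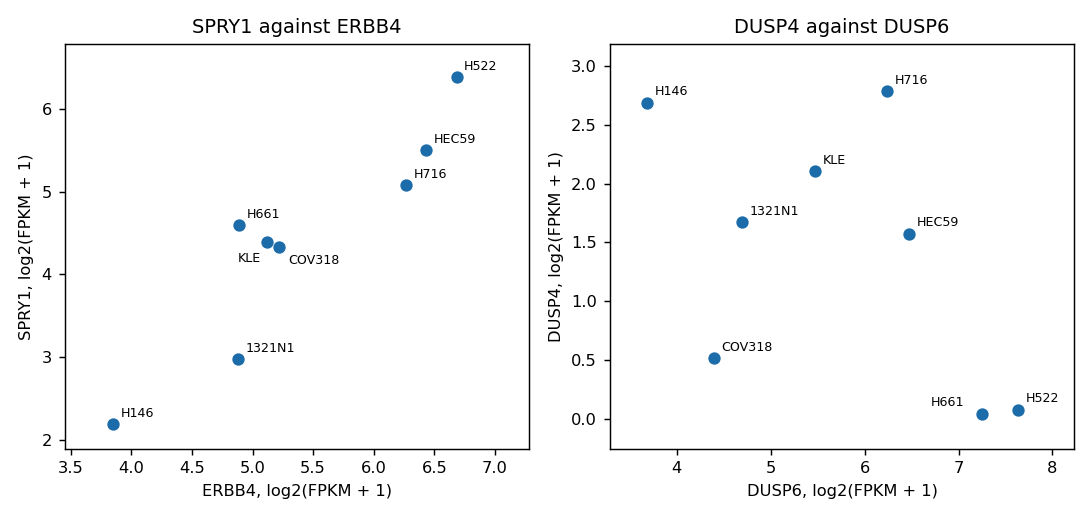
Left, SPRY1 against ERBB4, and right, DUSP4 against DUSP6, each as log2(FPKM + 1), with 1 point per line and no error bars. SPRY1 rises with ERBB4 from H146 to H522 (r = 0.92), while H522 and H661 combine the highest DUSP6 with DUSP4 close to 0.

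By tissue, none of the 10 genes passed. In limma with Benjamini-Hochberg adjustment, 0 of 10 were called between the 3 lung and the 5 other lines, where 0.0256% of all genes were called, and 0 of 10 had an unadjusted p under 0.05, against 5.94% of all genes. That last count was 2 without H146, 1 without H661 and 1 without HEC59. SPRY2 differed most, with a mean log2 level of 2.12 in the lung lines and 3.54 in the others (difference -1.42, SE 0.97, adjusted p = 0.878), its lung values being 29.7, 1.27 and 0.192. The SPRY2 difference was -2.82 without H661, -0.94 without H146 and -0.48 without H522. It was no longer the largest without H146 or without H522. DUSP5 differed by -0.88 (SE 0.45, limma adjusted p = 0.839) and DUSP6 by 0.73 (SE 0.89, limma adjusted p = 0.947). The median difference over the 10 was -0.41, against -0.023 over all genes tested. Lung and other lines overlapped for all 10, while 2.07% of all genes were higher and 2.23% lower in every lung line. With H146 left out the DUSP6 difference was 1.98, since H522 and H661 lie above all other lines, and with H522 left out it was 0.0082 and with H661 left out 0.20.

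The 2 endometrial lines gave the same count. Against the 6 other lines 0 of 10 were called by limma, where 0.00639% of all genes were, and 0 of 10 had an unadjusted p under 0.05, against 4.82% of all genes. This number of members was 1 without KLE and 1 without H146. The largest differences were those of ETV5 (-1.32, SE 0.97, limma adjusted p = 0.954) and SPRED1 (-1.24, SE 0.61, limma adjusted p = 0.954). For SPRED1 the difference was -0.69 without HEC59 and -1.78 without KLE. KLE and HEC59 were themselves apart for ETV5, at 57.1 and 5.40, and the ETV5 difference was 0.27 without HEC59 and -2.92 without KLE. The median difference was -0.062 for the 10 and -0.11 for all genes tested. No gene of the 10 was without overlap, while 2.43% of all genes were higher and 4.53% lower in both endometrial lines. The intervals in the plot of tissue differences span 2.003 to 5.41 log2 units, so tissue differences of several fold were not detectable with these lines.

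**Figure D5:**
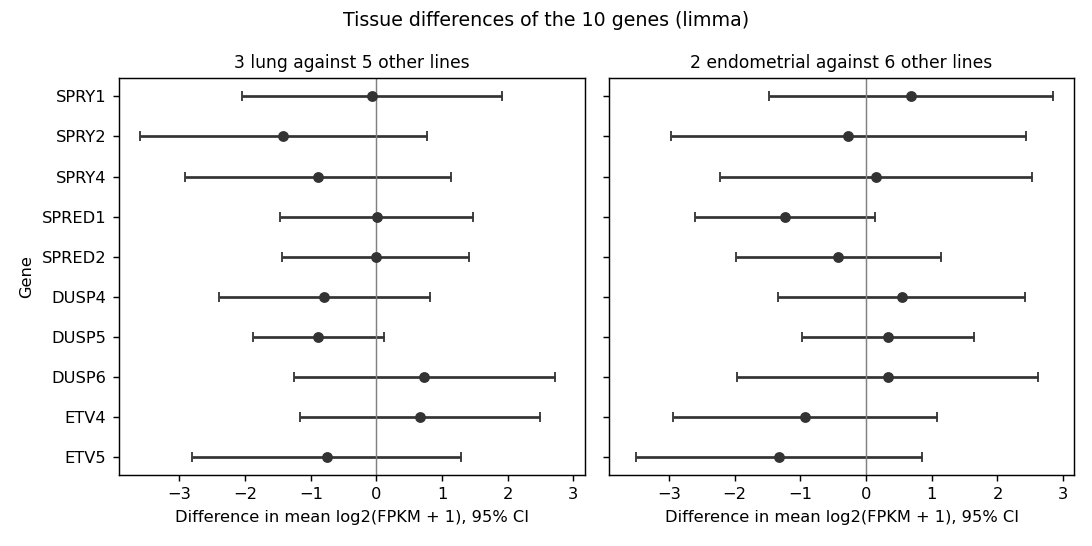
Difference in mean log2(FPKM + 1) (points) with its 95% confidence interval (bars) from limma, for 3 lung against 5 other lines (left) and 2 endometrial against 6 other lines (right). All 20 intervals include 0, from the -1.42 of SPRY2 in the lung lines to the 0.73 of DUSP6.

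Other targets of ERK were low in H146 as well, but their order over the other lines differed. Of 18 further ERK-induced genes, H146 was lowest for 11, where 19.6% of all genes tested were lowest in that line. In H146 5 of the 18 reached an FPKM of 1, against 13 to 15 in the other lines. Among all identifiers 13300 reached it in H146 and 12205 (H716) to 12986 (KLE) in the others. CCND1, which encodes the G1 cyclin D1, was at 0.0996 in H146, 19.1 in H522, 57.8 in H661 and 60.9 in KLE, and at 342 in COV318. EGR1, an immediate-early transcription factor gene, was at 0.622 in H146 and 137 in HEC59, and HMGA2, a chromatin factor gene, at 0.104 in H146 and 264 in COV318. The mean log2 level of the 18 was highest in COV318 (3.53) and 1321N1 (3.37), whose means over the 10 feedback genes were 3.17 and 3.74, and was 2.48 in H716. None of the 17 tested was called by limma, where 0.0256% (lung) and 0.00639% (endometrial) of all genes were. At an unadjusted p under 0.05 there were 2 of 17 in the lung comparison, against 5.94% of all genes. In the endometrial comparison there were 0, against 4.82%. The 2 were CCND1 and EGR2, named after their values were seen (differences -3.68, SE 1.12, limma adjusted p = 0.613, and -0.88, SE 0.38, limma adjusted p = 0.821).

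The kinases and adaptors of the pathway were more even. Of 20 genes from receptor adaptors to ERK, 18 to 20 reached an FPKM of 1 in each line, and mean log2 levels ranged from 3.83 in H146 to 4.54 in 1321N1. BRAF ranged from 13.9 to 23.5 and MAPK3, the ERK1 gene, from 13.0 in H522 to 37.2 in 1321N1. The widest were SHC1 (9.13 in H146 to 159 in H522) and GAB1 (0.945 in H146 to 25.0 in 1321N1), which encode receptor adaptors. None of the 19 tested was called in either comparison by limma, where 0.0256% (lung) and 0.00639% (endometrial) of all genes were. Among 10 other negative regulators LRIG1, which encodes a receptor inhibitor, ranged from 0.767 in H522 to 29.6 in HEC59, ERRFI1, an inducible inhibitor of EGFR, from 4.12 in H146 to 66.6 in 1321N1, and ERF, an ETS repressor that ERK inactivates, from 2.75 in H146 to 35.3 in H716. CIC was at 0.693 to 3.26, and none of the 10 was called by limma, against the same shares of all genes.

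Genes with a profile close to that of the 10 together were also sought. Among 14618 genes tested with a range of at least 1 on the log2 scale, 45 had r of 0.9 or more over the 8 lines with the mean of the standardised 10. For single members this number lay between 11 for DUSP5 and 63 for SPRED1. The members themselves were not left out of these counts. The closest were RAB33B (0.98), LIMS1 (0.97), DDX19A (0.97), MTMR11 (0.96) and EIF4E (0.96). RAB33B was at 7.28 in H716 and 1.18 in H146. Close to DUSP6 was LRRC37BP1 (0.94), a pseudogene whose reads may be shared with similar copies. For SPRY1 the closest were IDE (0.97) and FAM8A1 (0.94), for SPRY2 TRDMT1 (0.96) and PRELID2 (0.95), and for SPRY4 LTBP4 (0.95) and CARD10 (0.94). SPRED1 was closest to GSPT1 (0.97) and ZZZ3 (0.97), and SPRED2 to DHODH (0.98) and BIRC6 (0.97). DUSP4 was closest to PMAIP1 (0.96), at 0.531 in H522 and 0.469 in H661 and at 107 in H146, and to NT5M (0.95). DUSP5 was closest to CMTM7 (0.97) and ZC3H18 (0.96), ETV5 to EMC4 (0.96) and SMEK2 (0.96), and ETV4 to ACOT1 (0.97) and ACOT2 (0.96), near-identical genes whose values are uncertain. With 8 points and 14618 genes searched, these lists are descriptions.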

How the data were processed

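RNA was sequenced from 8 cell lines, 1 library each. The authors deposited 1 table of FPKM by Ensembl gene for each line, as the file headers show. CASAVA 1.4, TopHat2 2.0.8, SAMtools 1.0 and build GRCh37 are named, per the submitters' processing notes. The FPKM program, its annotation and its strand setting were not given in the sources used here. Scaling by length and total mapped fragments inflates short RNAs and removes read totals.

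Values were taken as log2(FPKM + 1), which understates differences at low levels. The 15650 genes reaching 1 FPKM in 2 lines or more were fitted in limma 3.58.1 (R 4.3.3, eBayes with trend, Benjamini-Hochberg threshold 0.05, two-sided), lines grouped by labelled tissue. The code was run on simulated data with less spread than the median gene here, which does not show what it can detect in these lines. P-values measure the spread between lines. Relative depth was read from the most frequent ratio, between lines, of values below 0.1. Correlations, ranks and figures used Python 3.11.15. Members, gene lists and tests were chosen with earlier results of these data known. Named genes were the 10, their family genes, ERBB4, EGFR and the FGFR genes, the 3 widest of each other list and those closest in profile, of which some are not reported here; a few further listed genes are examples chosen after their values were seen. Other pseudocounts, filters, scalings and sets of lines were tried. Overlapping genes were found from exon positions in GENCODE v29 (GRCh38), a later build than the GRCh37 named for these data, and promoters came from RefSeq.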

Additional observations from a re-analysis of the deposited data

How the results depend on the processing

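No member was called under any of the 17 alternatives of either tissue comparison, whose lowest adjusted p (limma) was 0.405 for lung and 0.770 for endometrial lines. The number of all genes called, 4 in the lung comparison, was 11 with a pseudocount of 0.1, 2 with a pseudocount of 5, 1 with no filter, 2 with the read-step set as a term, and 1 to 16 leaving out single lines; in the endometrial comparison, 1, it was 4 with a pseudocount of 5, 20 with no filter and 1 to 30 leaving out single lines. Lung differences near 0 changed sign: SPRY1 was 0.058 with a pseudocount of 5, 0.058 with upper-quartile scaling and 0.11 with rescaled totals; SPRED2 was 0.038, 0.13 and 0.17, and 0.052 with quantile normalization; SPRED1 was -0.010 (pseudocount of 5) and -0.23 (read-step term). Endometrial SPRY2 was 0.019 with a pseudocount of 0.1 and SPRY4 -0.034 with one of 5. Leaving out single lines, lung differences ran from -1.06 to 1.04 for SPRY1, -0.54 to 0.41 for SPRED1, -0.76 to 0.75 for SPRED2 and -1.80 to 0.26 for SPRY4, and endometrial ones from -0.84 to 0.28 for SPRY2, -0.42 to 0.57 for SPRY4, -0.16 to 0.82 for DUSP5, -0.17 to 0.83 for DUSP6 and -2.92 to 0.27 for ETV5. The median lung difference over all genes moved from -0.023 to 0.13 with rescaled totals. Genes trailed by 1 line, 2, were 5 with a pseudocount of 0.1, 1 with one of 5, 1 at a margin of 2, and 2 to 4 leaving out single lines; genes led by 1 line were then 0 to 3. Genes highest in H716, 4, were 2 with upper-quartile scaling and 4 to 6 leaving out single lines, and genes lowest in H146, 5, were 5 to 7. DUSP4 was highest in H146 and not in H716 with upper-quartile scaling, quantile normalization and rescaled totals. The median r was 0.20 centred within read-step sets and 0.20 to 0.53 leaving out single lines, and the distance between lines 1.61 to 2.55. A lone endometrial line was assumed to vary like the others. No paired analysis was possible because each line is 1 library and the lines are different tumours. Depth limits low values such as DUSP4 in H661, and the cause of these changes was not tested.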

Other observations

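Dual-specificity phosphatase genes outside the 10 showed other profiles. DUSP1, an immediate-early stress-induced phosphatase gene, was at 83.8 in COV318 and at 1.004 in H146, with a median over the lines of 7.98. DUSP7, whose product is a cytoplasmic ERK phosphatase related to that of DUSP6, was at 34.6 in 1321N1 and 19.5 in COV318, which each ranked below at least 5 lines for DUSP6, and at 4.53 to 8.36 in the other 6. DUSP10, which acts on the stress kinases JNK and p38, was at 0.0313 in H522 and 12.8 in HEC59, and DUSP16, of the same specificity, at 3.35 in KLE to 17.6 in HEC59. DUSP2, DUSP8 and DUSP9 did not exceed 3.85 in any line, the level of DUSP8 in H146.

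Receptors that feed ERK also differed by line. MET, the hepatocyte growth factor receptor gene, stood at 37.5 to 125 outside the lung lines and at 1.36 (H522), 7.32 (H661) and 14.7 (H146) in them (log2 difference -3.45, SE 0.62, limma adjusted p = 0.153). PDGFRA, a platelet-derived growth factor receptor gene, was at 50.1 in 1321N1 and 9.38 in H146. Neither passed the threshold.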
